A study of Mus musculus with 7 samples.

Results

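The colony-stimulating factor (CSF) receptors and ligands were examined in lipid-rich microglia after stroke, as 8 genes of the 50686 listed in each library. The members were chosen by gene name. They are the receptor Csf1r with its ligands Csf1 and Il34, the GM-CSF receptor chains Csf2ra, Csf2rb and Csf2rb2, the G-CSF receptor Csf3r, and Flt3, a receptor tyrosine kinase of the same class as Csf1r. Microglia were isolated from the forebrain of male C57BL/6 mice at day 4 after a 45 min occlusion of the middle cerebral artery. Young mice were 3 to 4 months old (n = 4; 14C, 18C, 23C and 29C) and old mice were 21 to 22 months old (n = 3; 2posI, 3posI and 4posI). All were ischemic, and the occlusion was done under isoflurane with buprenorphine as analgesic. The labels name no other drug and no altered allele in either age. Cells were sorted as CD11b+ CD45low, a gate set to separate microglia from CD45-high leukocytes such as neutrophils and monocytes, and as Bodipy+, the dye marking neutral lipid, so microglia without lipid and microglia of uninjured brain are not represented.

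Signalling through Csf1r keeps microglia alive and lets them divide, and antagonists of this receptor are the means by which microglia are depleted in mice, which the study did in other animals. Csf1 and Il34 bind the same receptor, and in the brain Il34 is known mainly as a neuronal product while Csf1 is also made by glia. GM-CSF is sensed by a specific alpha chain, Csf2ra, together with the common beta chain Csf2rb, which also serves the receptors of IL-3 and IL-5. Mice carry an additional beta chain gene, Csf2rb2, whose product pairs with the IL-3 receptor alpha chain. Csf3r is best known in neutrophils and Flt3 in progenitors of blood and dendritic cells.

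The beta chain genes are close copies of each other, which bears on how their reads can be told apart. Csf2rb (chr15:78325752-78353847, plus strand, GRCm38) and Csf2rb2 (chr15:78282507-78305721, minus strand) are neighbours on opposite strands. Their coding sequences, from the transcripts Csf2rb-206 (2688 bases) and Csf2rb2-201 (2634 bases), were 95.2% identical over 2628 aligned bases, with 125 differing bases and a longest identical run of 242 bases. A coding stretch that does not differ and the 90-base coding stretch that differs most are shown, the first from exon 9 of Csf2rb and exon 8 of Csf2rb2, the other from exon 5 of Csf2rb and exon 4 of Csf2rb2. Capitals mark the 16 bases that differ.
Csf2rb, identical stretch, chr15:78341658-78341747, plus strand: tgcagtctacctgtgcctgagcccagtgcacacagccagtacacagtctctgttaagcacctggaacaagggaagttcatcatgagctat
Csf2rb2, identical stretch, chr15:78291563-78291652, minus strand: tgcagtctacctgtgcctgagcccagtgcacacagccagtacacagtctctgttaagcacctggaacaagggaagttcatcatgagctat
Csf2rb, differing stretch, chr15:78338897-78338986, plus strand: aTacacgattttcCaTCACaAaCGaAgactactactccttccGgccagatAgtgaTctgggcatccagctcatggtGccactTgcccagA
Csf2rb2, differing stretch, chr15:78294345-78294434, minus strand: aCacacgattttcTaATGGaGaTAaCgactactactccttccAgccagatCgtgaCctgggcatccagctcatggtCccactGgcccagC
A read from the first stretch cannot be assigned to 1 of the genes by its sequence, whereas a read from the other can. Of all 50-base windows in the annotated transcripts, 12.3% of those of Csf2rb and 18.9% of those of Csf2rb2 also occurred in another gene, which for 892 windows was the other beta chain. RSEM, which quantified the genes, divides such reads by estimation, and the expected counts of the pair were whole numbers, within a tolerance of 0.001, in 1 library only.

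The other members could be told apart better, with Csf1r and Csf3r as partial exceptions. No window of Csf1 (chr3:107741048-107760469, minus strand) or Csf2ra (chr19:61223957-61228429, minus strand) occurred in another gene. The share was 0.049% for Flt3 (chr5:147330741-147400489, minus strand) and 1.3% for Il34 (chr8:110741829-110805924, minus strand). For Csf1r, on chromosome 18, it was 14.3%, all with Hmgxb3, a gene on the opposite strand whose transcripts overlap those of Csf1r and cannot be separated from it in libraries that do not keep the strand. Hmgxb3 had 423 to 1274 expected counts per library, which was 0.315% to 0.872% of the count of Csf1r. For Csf3r (chr4:126024550-126044440, plus strand) it was 10.7%, of which 325 windows occurred in AC105061.2, which is not in the files used here.

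Expected counts summed to 48309150 in 14C, 45379786 in 18C, 53002386 in 23C and 50659118 in 29C, and to 36574083 in 2posI, 42931779 in 3posI and 46133564 in 4posI. Ribosomal RNA genes, nuclear and mitochondrial, took 4.14% to 4.99% of the counts of a young library and 2.21% to 3.37% of those of an old one. The ages did not overlap in this measure, and its part in the results was not tested. The label microglia was checked against 10 marker genes. Their summed level was 14197 to 20364 TPM, the transcript level corrected for length and scaled to the same total in each library, in the young libraries, and 14646 (2posI), 6799 (3posI) and 15738 (4posI) TPM in the old ones. All 10 markers were detected in every library.

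Old mouse 3posI stood apart in markers of other myeloid cells. The 8 markers of border-associated macrophages summed to 1890.3 TPM in 3posI against 238 to 656 TPM in the other libraries. Ms4a7, their most abundant gene by the mean over all libraries, had 598 TPM in 3posI, where Pf4, a chemokine, was higher with 775 TPM. The 8 monocyte markers summed to 2310 TPM in 3posI against 246 to 583 TPM elsewhere. Their most abundant gene over all libraries, Nr4a1, an immediate early gene that microglia also express, had 505 TPM in 3posI, within the range of the others. Chil3, a chitinase-like protein of monocytes, had 1217 TPM in 3posI and 7.50 to 65.9 TPM elsewhere, and Ccr2, the chemokine receptor of inflammatory monocytes, 87.3 TPM against 0.86 to 8.24 TPM. Higher monocyte markers were not limited to 3posI, since Ly6c2, a surface antigen of monocytes, had 2.06 to 5.96 TPM in young mice and 27.7 (2posI), 320.04 (3posI) and 19.6 (4posI) TPM in old mice. Likewise Plac8, another monocyte gene, had 1.89 to 8.66 TPM in young mice and 12.2, 158 and 24.0 TPM in the old ones. The 8 dendritic cell markers summed to 47.8 TPM in 3posI and 14.2 to 32.8 TPM elsewhere. Batf3, a transcription factor and their most abundant gene over all libraries, was lowest in 3posI (8.15 TPM against 11.0 to 23.0 TPM), where most of the sum was Ccr7. Cd209a, a lectin of monocyte-derived dendritic cells, had 0.08 to 1.49 TPM in young and 5.35 to 6.67 TPM in old mice. Zbtb46, a transcription factor of conventional dendritic cells, went the other way, with 1.20 to 1.64 TPM in young and 0.38 to 0.87 TPM in old mice. By edgeR the fold change of old over young mice was positive for 8 of 8 markers of border-associated macrophages (median log2 fold change 0.93), 7 of 8 of monocytes (3.69), 9 of 10 of neutrophils (1.16), 5 of 8 of dendritic cells (1.12) and 2 of 9 tested of microglia (-0.28), with 0 called in each list. These values include 3posI. The macrophage sums of the other old mice were 656 (2posI) and 265 TPM (4posI), against 238 to 610 TPM in young mice. The 7 monocyte markers other than Nr4a1 summed to 69.8 TPM in 2posI and 117 TPM in 4posI, against 19.4 to 67.6 TPM in young mice. The difference between ages is therefore given with and without 3posI for each member.

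**Figure D1:**
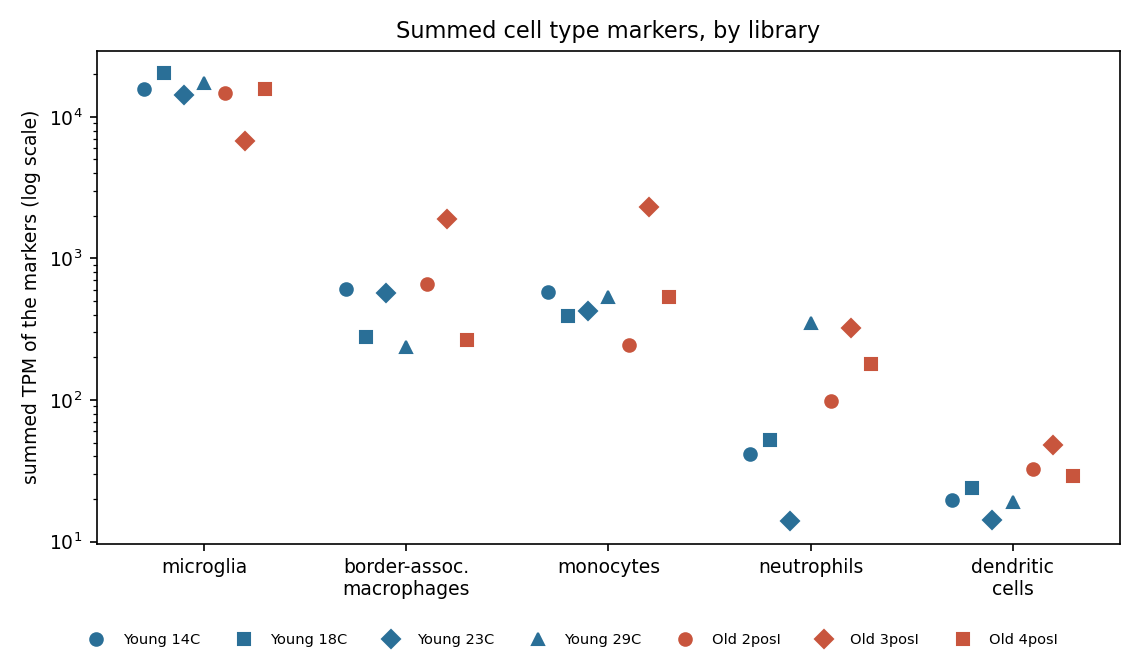
Summed TPM of the marker genes of 5 myeloid cell types (log axis), with 1 point per library, young mice in blue and old mice in red. In 3posI (red diamond) the microglial sum was lowest, at 6799 TPM, and the sums for border-associated macrophages (1890.3 TPM), monocytes (2310 TPM) and dendritic cells (47.8 TPM) were highest.

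Neutrophil markers followed another order. Their 10 genes were led by S100a8, a calcium-binding protein of neutrophils. They summed to 348 TPM in 29C, 323 TPM in 3posI and 181 TPM in 4posI, against 13.9 to 97.9 TPM in the other 4 libraries. Markers of cells outside the myeloid lineage were low. Neuronal genes summed to at most 2.80 TPM with Rbfox3, a neuronal splicing factor, as the most abundant, and astrocyte genes, led by the glutamate transporter Slc1a3, to at most 84.4 TPM. Endothelial genes, led by the tight junction gene Cldn5, reached 119 TPM, pericyte and fibroblast genes, led by Dcn, 109.9 TPM, and oligodendrocyte lineage genes, led by Cnp, 107 TPM, each in 23C. In the other libraries the pericyte and fibroblast sum was 8.61 to 28.0 TPM. Among all markers tested 1 was called, the endothelial transporter Slco1a4, which was lower in old mice (log2 fold change -1.66 ± 0.23 (SE), edgeR adjusted p = 0.028). Genes of T and NK cells reached 8.89 TPM with Cd4 as the most abundant, those of mast cells and basophils 3.65 TPM with Tpsb2, those of plasmacytoid dendritic cells 4.20 TPM with Pacsin1, and those of B cells 228 TPM, which came mostly from Ighm. The median log2 fold change of old over young mice was 3.94 for T and NK cell genes (8 of 9 tested positive), -1.89 for pericyte and fibroblast genes (3 of 7) and -0.69 for endothelial genes (1 of 7). Of the 10 T and NK cell genes, 6 were under 1 TPM in all libraries. The T and NK cell sum was 1.40 to 5.24 TPM in young mice and 4.75 (2posI), 8.89 (3posI) and 7.74 (4posI) TPM in old mice. The median was -5.13 for mast cell and basophil genes (1 of 5), whose sum was 3.65 TPM in 14C and at most 1.01 TPM elsewhere. For neuronal genes it was -0.93 (1 of 3), for B cell genes 0.63 (4 of 5) and for plasmacytoid dendritic cell genes 0.31 (2 of 4). Astrocyte genes had -0.02 (3 of 7) and oligodendrocyte lineage genes 0.11 (4 of 7). Klk1 among the plasmacytoid and Pax5 among the B cell markers were listed at 0 in all 7 libraries.

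Csf1r was by far the most abundant member. On the length-corrected TPM scale the order of the means over all libraries was Csf1r (1534 TPM), Csf2ra (197 TPM), Csf3r (115 TPM), Csf1 (81.8 TPM), Csf2rb (38.8 TPM), Csf2rb2 (22.3 TPM), Flt3 (0.571 TPM) and Il34 (0.50 TPM). Neighbours kept this order within each of the 7 libraries, except that Csf3r was above Csf1 in 6, Csf1 above Csf2rb in 6 and Flt3 above Il34 in 3, so the last pair could not be ranked. Csf1r took 0.187% to 0.624% of all expected counts in a library, and among all genes it ranked 48th by TPM in 18C, where it was highest, and 183rd in 3posI, where it was lowest.

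Old and young mice were compared over the 17559 genes that passed the filters. Across these genes 0.803% differed between the ages at an adjusted p under 0.05 (141 genes), 0.57% as higher and 0.233% as lower in old mice, with edgeR's quasi-likelihood test and Benjamini-Hochberg adjustment. None of the 8 members did. At an unadjusted p under 0.05, which 18.9% of all genes tested passed, 2 members differed, Csf1 as lower and Flt3 as higher in old mice. In 1 member, Csf1, the libraries of the ages did not overlap, compared with 17.7% of all genes. Of the 8 log2 fold changes of old over young mice 5 were negative and 3 positive, with a median of -0.26, beside -0.014 over all genes tested. limma-voom called 0 members, and 143 genes or 0.814% in all. DESeq2 called 2 members, Csf1 and Flt3, and 1403 genes or 9.51% of the 14754 to which it gave an adjusted p. In cells sorted as a bulk sample, fewer cells of a type and less RNA per cell cannot be told apart.

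**Figure D2:**
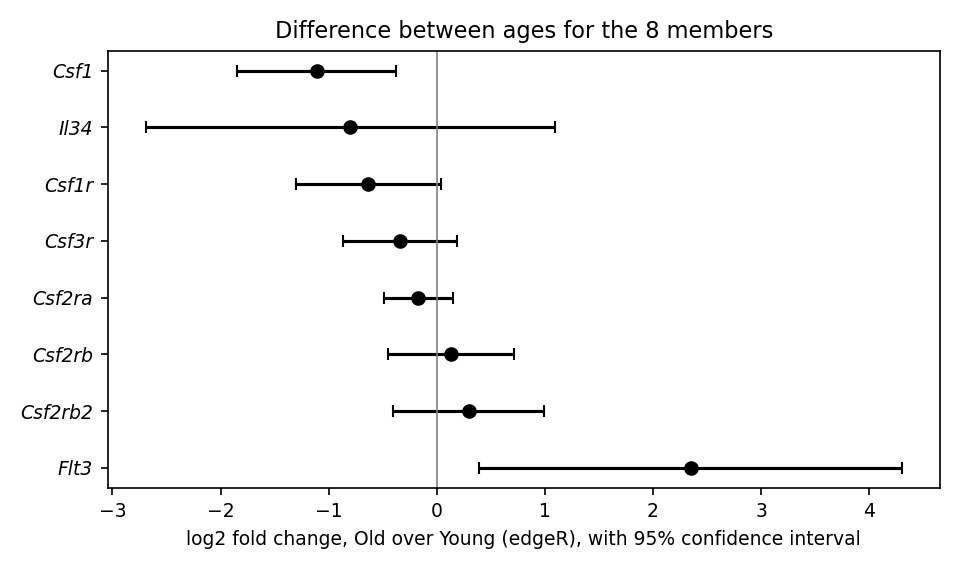
Log2 fold change of old over young mice for the 8 members (points) with the 95% confidence interval of the edgeR fit (bars), ordered by the fold change. The intervals of Csf1 (-1.85 to -0.37) and Flt3 (0.39 to 4.30) left out 0 before adjustment over all genes, and no member passed the threshold after it.

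Csf1 was lower in every old mouse than in every young mouse. This ligand of Csf1r had 206 (14C), 229 (18C), 229 (23C) and 236 (29C) CPM, the count scaled to library size with TMM factors, in young mice. In old mice it had 78.0 (2posI), 61.4 (3posI) and 173 (4posI) CPM. The young libraries lay close together, at 225 ± 12.98 CPM (SD, n = 4), whereas the old ones were spread, at 104 ± 60.3 CPM (SD, n = 3), with 4posI nearer to the young mice than to the other old ones. The log2 fold change was -1.11 ± 0.32 (SE), with a 95% confidence interval of -1.85 to -0.37, and did not pass the threshold (edgeR adjusted p = 0.132). It was -0.84 without 3posI (adjusted p = 0.181) and -1.70 without 4posI, where it passed the threshold (edgeR adjusted p = 0.0457). DESeq2 on all libraries also called it (log2 fold change -1.11, adjusted p = 0.0133). On the TPM scale the ages did not overlap either, with 94.9 to 118 TPM in young mice and 33.3, 25.1 and 84.7 TPM in old mice.

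Csf1r itself was also lower on average in old mice, with overlapping ages. It had 5199.9 (14C), 6338 (18C), 3513 (23C) and 5299 (29C) CPM in young mice. In old mice it had 4004 (2posI), 2049 (3posI) and 3789 (4posI) CPM. The lowest young library, 23C, lay below 2 of the old ones, and 3posI, with the fewest microglial marker transcripts, was lowest of all. The means were 5088 ± 1169 (SD, n = 4) and 3281 ± 1072 CPM (SD, n = 3). This gave a log2 fold change of -0.63 ± 0.29 (SE; 95% confidence interval -1.30 to 0.04; edgeR adjusted p = 0.288) which was -0.38 without 3posI (adjusted p = 0.463).

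Il34, the other ligand of Csf1r, was at the edge of detection. It had 15, 9, 49 and 28 expected counts in 14C, 18C, 23C and 29C, and 5, 26 and 4 in 2posI, 3posI and 4posI. The ages overlapped, and the log2 fold change of -0.80 ± 0.83 (SE; 95% confidence interval -2.69 to 1.09; edgeR adjusted p = 0.638) leaves differences of either sign possible at this depth. It was -2.15 without 3posI (edgeR adjusted p = 0.255), -0.33 without 23C, -0.35 without 4posI and -0.49 without 2posI, and -0.20 on log2(TPM + 1) and -0.43 with the effective-length offset. As neuronal markers were near 0 in the sorted cells, these libraries do not measure Il34 in its main known source.

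No chain of the GM-CSF receptor passed the threshold. Csf2ra, the ligand-specific chain, had 278, 257, 238 and 325 CPM in 14C, 18C, 23C and 29C, and 228, 253 and 251 CPM in 2posI, 3posI and 4posI. It had the smallest SD relative to its mean among the members in old mice, 13.9 against 244 CPM, and its log2 fold change of -0.17 ± 0.14 (SE; edgeR adjusted p = 0.541) had the narrowest interval, -0.49 to 0.15. Without 3posI it was -0.20 and without 29C -0.08.

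The beta chains were even among the young mice and spread among the old. Csf2rb had 141, 123, 132 and 124 CPM in 14C, 18C, 23C and 29C, and 96.2, 218 and 114 CPM in 2posI, 3posI and 4posI. Csf2rb2 had 74.1, 60.9, 74.2 and 66.1 CPM in the young libraries and 48.9, 137 and 67.2 CPM in the old ones, in the same order of mice. In each case 3posI was highest of all 7 libraries and 2posI lowest, so the old values enclosed the young ones. The log2 fold change was 0.13 ± 0.26 (SE; 95% confidence interval -0.45 to 0.72; edgeR adjusted p = 0.820) for Csf2rb, which turned to -0.31 without 3posI and to -0.05 on either TPM scale. For Csf2rb2 it was 0.30 ± 0.31 (SE; 95% confidence interval -0.40 to 0.99; edgeR adjusted p = 0.637), and it turned to -0.25 without 3posI and was 0.07 on either TPM scale. The border-associated macrophage and monocyte sums were also highest in 3posI. In 2posI, with the lowest beta chains, the macrophage sum was second highest (656 TPM). Its monocyte sum was lowest (246 TPM) through Nr4a1 (176 TPM against 370.4 to 516 TPM elsewhere), and the other 7 monocyte markers summed to 69.8 TPM, against 19.4 to 67.6 TPM in young mice. Their part in these values was not tested.

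The beta chain pair was also compared as a ratio within each library, which does not depend on library scaling. Csf2rb2 made up 35.3%, 33.8%, 36.7% and 35.5% of the summed TPM of the pair in 14C, 18C, 23C and 29C, and 34.5%, 39.5% and 37.9% in 2posI, 3posI and 4posI. The means of 35.3 ± 1.18% (SD, n = 4) and 37.3 ± 2.57% (SD, n = 3) differed by 1.98 percentage points (two-sided exact permutation test, p = 0.229). With 4 against 3 libraries this test cannot give a p below 0.0286. Without 3posI the difference was 0.871 percentage points. Because RSEM divides the shared reads of the pair, the share is an estimate of the model as well as a measurement. The level of Csf2ra was 1.84 times the summed level of the beta chains in 3posI and 2.98 to 4.42 times in the other libraries, all in TPM.

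Csf3r, the receptor of G-CSF, had 282, 323, 171 and 307 CPM in 14C, 18C, 23C and 29C, and 236, 171 and 234 CPM in 2posI, 3posI and 4posI. Libraries 23C and 3posI were equally low and the ages overlapped, with a log2 fold change of -0.34 ± 0.23 (SE; 95% confidence interval -0.87 to 0.19; edgeR adjusted p = 0.454) and -0.20 without 3posI. The neutrophil marker sum was 348 TPM in 29C and 52.6 TPM in 18C, the libraries with the most Csf3r by CPM, and 323 TPM in 3posI and 13.9 TPM in 23C, those with the least. Per 1000 TPM of microglial markers it was highest in 3posI, with 11.1 TPM against 5.87 to 8.37 TPM elsewhere, and the part of neutrophils in its level was not tested.

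Flt3 was low in all libraries and stood out in 3posI. It had 58, 15, 28 and 7 expected counts in 14C, 18C, 23C and 29C, and 33, 263 and 50 in 2posI, 3posI and 4posI. Old mice 2posI (0.983 CPM) and 4posI (1.08 CPM) lay below young mouse 14C (1.26 CPM), so the ages overlapped although 3posI had 6.72 CPM. The log2 fold change of 2.35 ± 0.86 (SE; 95% confidence interval 0.39 to 4.30; edgeR adjusted p = 0.194) was 0.85 without 3posI (adjusted p = 0.589), 0.62 on log2(TPM + 1) and 1.54 on log2(TPM + 0.1), and DESeq2 called it on all libraries (adjusted p = 0.0485). Among the dendritic cell markers Ccr7, a chemokine receptor of migrating dendritic cells, was also highest in 3posI, with 29.5 TPM against 0.30 to 2.27 TPM elsewhere. Zbtb46 was not, with 0.83 TPM in 3posI, 0.38 and 0.87 TPM in 2posI and 4posI, and 1.20 to 1.64 TPM in young mice.

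**Figure D3:**
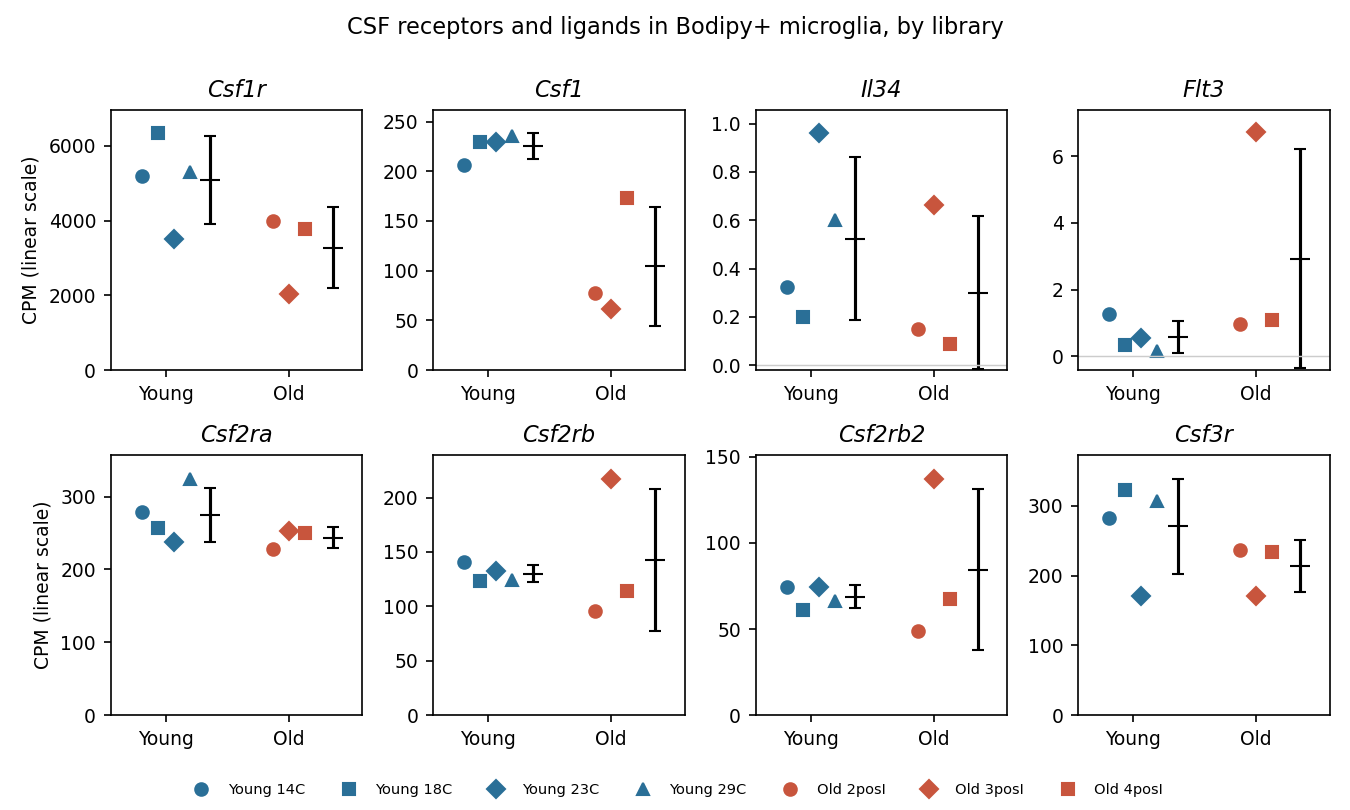
CPM of the 8 members on linear axes, with 1 point per library (young mice in blue, old mice in red) and the mean ± SD of each age in black. The old values of Csf1 lie below all young ones, while for Csf2rb, Csf2rb2 and Flt3 the highest value is that of 3posI (red diamond).

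As the content of microglial transcripts differed between libraries, the members were also expressed relative to the 10 microglial markers, a comparison chosen after the values were seen. Per 1000 TPM of summed markers, Csf1r had 120.1, 117, 91.2 and 104 TPM in 14C, 18C, 23C and 29C, and 87.2, 99.5 and 89.4 TPM in 2posI, 3posI and 4posI. Thus 3posI, lowest by CPM, was the highest old library on this scale, and the ages still overlapped (log2 difference -0.23; two-sided exact permutation test, p = 0.114). Csf1 had 6.02, 5.45, 8.33 and 6.10 TPM per 1000 TPM in the young libraries and 2.27, 3.69 and 5.38 TPM in the old ones. The ages did not overlap, though 4posI (5.38 TPM) and 18C (5.45 TPM) nearly met. The log2 difference was -0.84, with an exact permutation p = 0.0286, the smallest this design allows, not adjusted for the 8 members compared. For Csf2rb the values were 1.85 to 2.79 TPM in young mice and 1.70, 8.62 and 2.19 TPM in old mice, with 3posI above all young libraries. On this scale 3posI, with the lowest marker sum, was also above all young libraries for Csf2ra (26.3 against 10.1 to 13.7 TPM), Csf2rb2 (5.62 TPM), Csf3r (11.1 TPM), Flt3 (0.349 TPM) and Il34 (0.115 TPM). The ages overlapped in these 5 members, and the log2 difference turned positive for Csf2ra (0.28) and Csf3r (0.19). It was 0.48 for Csf2rb and 0.60 for Csf2rb2.

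**Figure D4:**
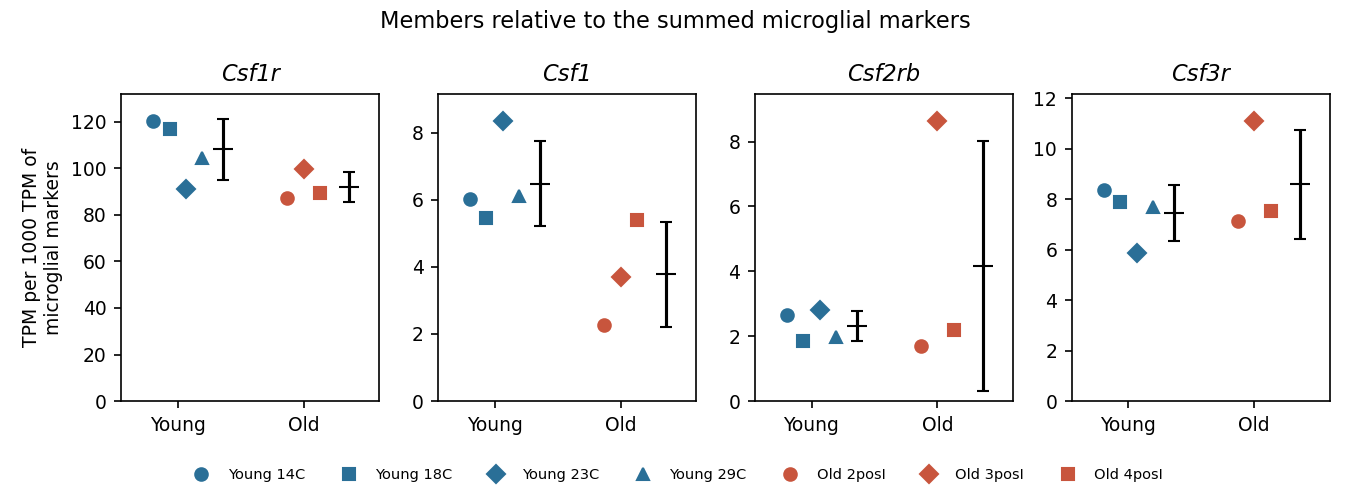
TPM of Csf1r, Csf1, Csf2rb and Csf3r per 1000 TPM of the summed microglial markers, with 1 point per library and the mean ± SD of each age in black; axes start at 0. Old Csf1 values (2.27 to 5.38 TPM) lie below the young ones (5.45 to 8.33 TPM), and Csf2rb in 3posI (8.62 TPM) lies above all others.

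The balance of ligand and receptor was compared as the log2 ratio of Csf1 to Csf1r TPM. It was -4.32, -4.42, -3.45 and -4.10 in 14C, 18C, 23C and 29C, and -5.26, -4.75 and -4.05 in 2posI, 3posI and 4posI. In 4posI the ratio was above that of 3 young libraries, so the ages overlapped. The mean difference was -0.62 (two-sided exact permutation test, p = 0.229), and it was -0.33 without 2posI and -0.94 without 4posI.

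The 250 bases before the RefSeq transcript start (GRCm38.p6) were searched on both strands for GAGGAA, a core motif of PU.1, the myeloid factor known to act on CSF receptor genes. Promoters of 5 of the 8 members were searched, and those of Csf1r, Csf2rb and Il34 were not. The motif had 2 matches in Csf2ra, 1 in Csf2rb2, 1 in Csf3r and none in Csf1 or Flt3, and 23.3% of 32851 promoters of the same length held it. Shown are the promoter of Csf1, whose ages did not overlap, and the promoter of Csf2ra, whose difference had the narrowest interval. Capitals mark the motif, with adjoining matches in Csf2ra.
Csf1, chr3:107760470-107760719, minus strand: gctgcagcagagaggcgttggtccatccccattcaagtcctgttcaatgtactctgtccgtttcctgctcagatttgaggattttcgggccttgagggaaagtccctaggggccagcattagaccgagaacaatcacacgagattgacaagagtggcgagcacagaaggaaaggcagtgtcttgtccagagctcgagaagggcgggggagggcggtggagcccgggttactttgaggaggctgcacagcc
Csf2ra, chr19:61228419-61228668, minus strand: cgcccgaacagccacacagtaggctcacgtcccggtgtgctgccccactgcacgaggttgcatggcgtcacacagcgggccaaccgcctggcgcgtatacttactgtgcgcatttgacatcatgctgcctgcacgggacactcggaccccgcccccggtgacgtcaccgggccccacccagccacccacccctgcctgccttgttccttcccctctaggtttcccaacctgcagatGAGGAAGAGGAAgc
A match is a description of the letters only.

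Of 13 genes listed as other ligands and receptors, not all of them of the CSF family, 9 could be tested, with a median log2 fold change of -0.05. By edgeR and limma-voom 0 of 9 were called and by DESeq2 0 of the 7 given an adjusted p, and 0 had an unadjusted p under 0.05 in edgeR. Over all genes the shares called were 0.803% by edgeR, 0.814% by limma-voom and 9.51% by DESeq2. At an unadjusted p under 0.05 in edgeR the share was 18.9%. The cytokines that would engage the GM-CSF receptor family, Csf2, Il3 and Il5, had 0 expected counts in all 7 libraries, which allows up to 3 counts, or 0.082 CPM without TMM scaling in the smallest library. Il5ra had 4 counts in 4posI and 0 elsewhere. The 4 genes with the smallest p were Sdc1, a heparan sulfate proteoglycan, Pdgfrb, a receptor kinase related to Csf1r, Il3ra, the alpha chain that pairs with the products of the beta chain genes, and Flt3l, the ligand of Flt3. Sdc1 had 20.5 CPM in 3posI and 0.507 to 2.69 CPM in the other libraries, with a log2 fold change of 2.59 ± 1.14 (SE; edgeR adjusted p = 0.266) that turned to -0.66 without 3posI. Pdgfrb had a log2 fold change of -1.49 ± 0.72 (SE), which was -0.72 without 23C. It had 7.12 CPM in 23C, which also had the highest pericyte and fibroblast sum, and 0.410 to 2.58 CPM elsewhere. The part of these cells in its level was not tested. Il3ra had a log2 fold change of -0.27 ± 0.16 (SE), which was -0.15 without 18C. That of Flt3l was 0.39 ± 0.24 (SE), and it was 0.21 without 2posI and 0.083 and 0.095 on the TPM scales.

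Signalling genes next to the receptors gave 0 calls among 31 tested by edgeR and limma-voom and 2 by DESeq2, Jak2 and Sos1, beside its 9.51% of all genes, with a median log2 fold change of -0.03. At an unadjusted p under 0.05, 5 of 31 genes differed, a share below the 18.9% of all genes, and all were higher in old mice, namely Jak2, Sos1, Cbl, Mapk3 and Fgr. Fgr, a Src family kinase, had 103 CPM in 3posI and 28.8 and 30.0 CPM in the other old mice, beside 19.1 to 28.9 CPM in young mice. Jak2, the kinase bound to the beta chains, had 16.8, 13.2, 13.4 and 17.4 CPM in 14C, 18C, 23C and 29C, and 25.2, 31.7 and 21.6 CPM in 2posI, 3posI and 4posI. Sos1, an exchange factor that activates Ras, had 8.42, 9.64, 6.32 and 7.74 CPM in the young and 12.8, 13.7 and 13.1 CPM in the old libraries. Neither overlapped between the ages, and both missed the threshold. The log2 fold change was 0.79 ± 0.18 (SE; edgeR adjusted p = 0.0801; 0.62 without 3posI) for Jak2 and 0.72 ± 0.17 (SE; edgeR adjusted p = 0.0948; 0.69 without 3posI) for Sos1. Cbl, the ubiquitin ligase that ends Csf1r signalling, had a log2 fold change of 0.55 ± 0.20 (SE), which was -0.02 on either TPM scale, 0.088 with the effective-length offset and 0.35 without 3posI. Mapk3, the kinase ERK1, had 0.37 ± 0.15 (SE), which was 0.24 without 2posI. The ages also did not overlap in Grb2, an adaptor, Adam17, a protease that sheds Csf1r, and Plcg2, a phospholipase. Grb2 was higher in old mice (log2 fold change 0.39), and Adam17 (-0.24) and Plcg2 (-0.14) were lower. This made 5 of 31 genes without overlap, beside 17.7% of all genes. Tyrobp, the adaptor DAP12, had 5038 TPM in young and 4490 TPM in old mice on average.

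Among 12 transcription factors known to act on CSF receptor genes edgeR and limma-voom called 0 and DESeq2 called 1, Fli1, beside its 9.51% of all genes, and 2 of 12 had an unadjusted p under 0.05 in edgeR, Fli1 and Cbfb, beside 18.9% of all genes. The median log2 fold change was -0.08. Fli1, an ETS factor, had 161, 171, 130.1 and 149 CPM in 14C, 18C, 23C and 29C, and 120.1, 113 and 107 CPM in 2posI, 3posI and 4posI. Cbfb, the partner of Runx proteins, had 48.1, 47.9, 52.4 and 62.7 CPM in the young and 76.1, 64.1 and 65.2 CPM in the old libraries. The ages did not overlap in these 2 of 12 genes, beside 17.7% of all genes, with log2 fold changes of -0.43 ± 0.13 (SE; edgeR adjusted p = 0.140) and 0.38 ± 0.13 (SE; edgeR adjusted p = 0.185). Spi1, which encodes PU.1, was even, at 437 to 496 CPM in young and 479 to 507 CPM in old mice. For Maf and Ikzf1, factors of macrophage and lymphoid differentiation, the log2 fold changes were 0.46 ± 0.21 (SE) and -0.34 ± 0.18 (SE), which were 0.26 without 2posI and -0.21 without 3posI. On the TPM scales they were 0.30 and 0.31 for Maf and -0.58 and -0.59 for Ikzf1.

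Response and feedback genes of cytokine signalling numbered 16, all tested, with a median log2 fold change of 0.12. edgeR and limma-voom called 0 and DESeq2 called 2, Socs3 and Ccnd2, beside its 9.51% of all genes, and 3 of 16 had an unadjusted p under 0.05 in edgeR, these and Dusp6, beside 18.9% of all genes. Socs3, an inhibitor of cytokine receptor signalling that also binds Csf3r, had 785, 737, 598 and 569 CPM in 14C, 18C, 23C and 29C, and 171, 293 and 481 CPM in 2posI, 3posI and 4posI. Ccnd2, a D-type cyclin, had 2.79, 2.48, 4.43 and 2.41 CPM in the young and 4.56, 13.1 and 5.44 CPM in the old libraries. The ages did not overlap in these 2 of 16 genes, beside 17.7% of all genes, and for Ccnd2 the gap between 23C and 2posI was small. The log2 fold change was -1.09 ± 0.32 (SE; edgeR adjusted p = 0.133; -1.04 without 3posI) for Socs3 and 1.35 ± 0.40 (SE; edgeR adjusted p = 0.137; 0.72 without 3posI) for Ccnd2. Dusp6, a phosphatase that acts on ERK, and Ccnd1, the cyclin known to follow Csf1, had log2 fold changes of -0.43 ± 0.16 (SE) and 0.54 ± 0.24 (SE).

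**Figure D5:**
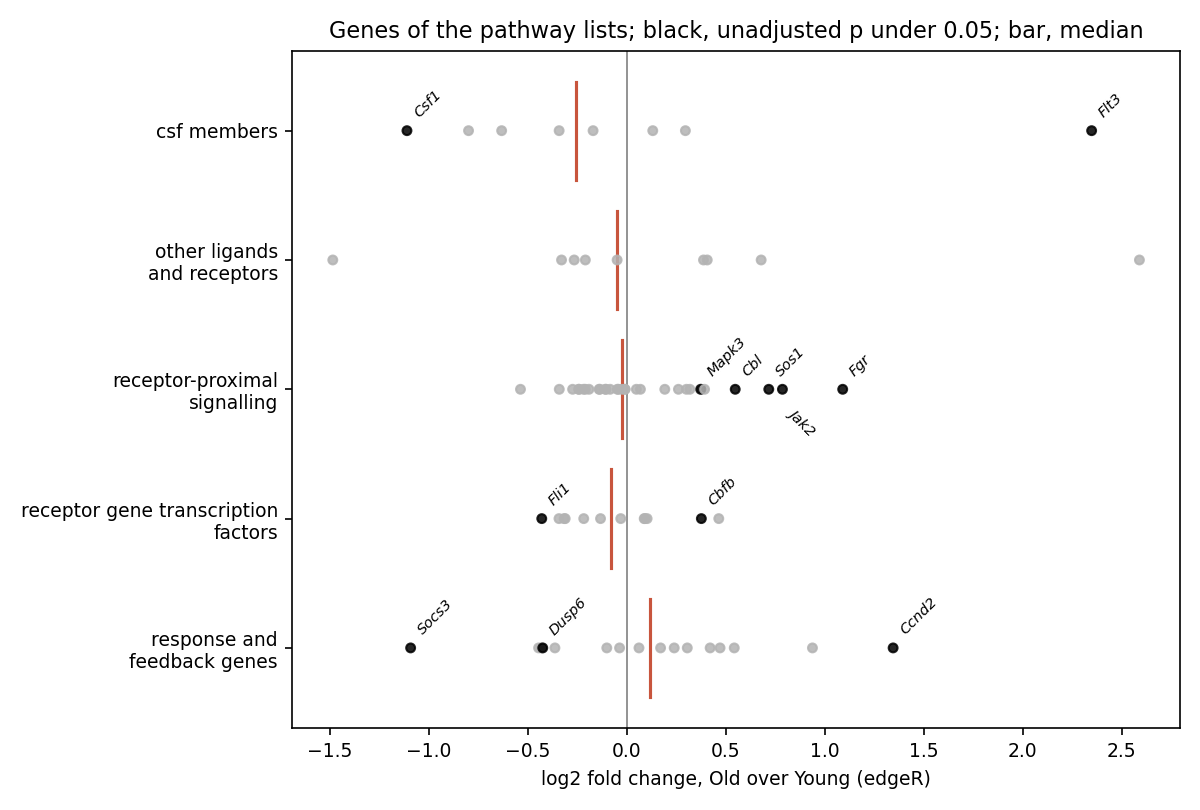
Log2 fold change of old over young mice for the tested genes of the 5 lists, with 1 point per gene, black and named where the unadjusted p was under 0.05, and a red bar at the median of the list. Medians lie between -0.26 (the 8 members) and 0.12 (response and feedback genes), and no gene passed edgeR's threshold after adjustment.

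Genes whose pattern was most like that of a member were sought among 8145 genes with a mean of at least 10 CPM, by Pearson's r of log2 CPM over the 7 libraries, given as a description of libraries that share depth and cell content. Csf1r was most like Foxn3 (r = 0.996), Numb (0.996) and Txndc16 (0.995), and 85 genes exceeded 0.95. Csf1 was most like Mical1 (0.983), Olfml2b (0.981) and Hjurp (0.979). With the age means removed, r over the 7 deviations was 0.954, 0.966 and 0.979 for these genes, which were chosen for their r over the same libraries. Csf2rb was most like Sde2 (0.989), Hsd3b7 (0.986) and Hilpda (0.986), and Csf2rb2 most like Sik1 (0.991), Nufip1 (0.988) and Commd5 (0.987). Csf3r was most like Manea (0.987), Tifab (0.986) and Gm12940 (0.981). Csf2ra was most like Golga5 (0.972), Sdc3 (0.966) and Tm9sf4 (0.943), with 2 genes above 0.95.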

How the data were processed

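RNA of FACS-sorted Bodipy+ microglia, 1 mouse per library, was amplified with a Smart-seq2 protocol that keeps no strand. The sources name no molecular identifiers, and limits set by a count of 0 cover counting error alone. STAR mapped the reads of the authors to GRCm38 and RSEM estimated gene levels on GENCODE m15 (versions not given in the sources used here). They deposited expected counts, which are not normalized, the authors' TPM and FPKM values, scaled within each library, and the deposited length and effective length of each gene, here an offset in 1 alternative.

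For the tests, expected counts were rounded. Genes needed a count above 10 in at least 1 library, and the 614 of 18173 such genes on X, Y or the mitochondrial genome were removed by GENCODE vM21, which held 50462 of 50686 identifiers. edgeR 4.0.16 (R 4.3.3) fitted the age group on TMM-scaled counts by quasi-likelihood, with Benjamini-Hochberg adjustment over 17559 genes and calls at an adjusted p under 0.05. Levels of different genes were compared in TPM, and ratios within a library by a two-sided exact permutation test. Labels give no batch. The fit was tested on simulated data.

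Alternatives were limma-voom (limma 3.58.1), DESeq2 1.42.0, other scalings, filters, units and thresholds, and fits that omit 1 library at a time. The members, gene lists and tests were chosen with earlier results of these data known. Named were all members, in each other pathway list the called genes and the 4 with the smallest p, in each marker list the most abundant gene and those at 0, and for each member with a mean of at least 10 CPM the 3 most similar genes. Slco1a4, Fgr, Grb2, Adam17, Plcg2, Spi1, Tyrobp, Chil3, Ccr2, Ly6c2, Plac8, Pf4, Cd209a, Ccr7 and Zbtb46 were named after their values were seen. The most abundant gene of the microglial markers is not reported here.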

Additional observations from a re-analysis of the deposited data

Results flagged for a closer look

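Of 26 sets of 4 young values, the CPM of the 8 members and 16 named pathway genes, the Csf2rb2 share and the Csf1 to Csf1r ratio, Dixon's test at its 95% critical value found 2 with a library far from the others, where chance gives about 1 in 20, or 1.3. For Sdc1 the gap of young mouse 23C (2.69 CPM) to the next library was 0.925 of the range of the young mice, with 23C as the highest. For Ikzf1 the gap of 23C (148 CPM) was 0.913 of the range, with 23C as the lowest. The old group, with 3 libraries, was not tested this way.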

How the results depend on the processing

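Precision was set by 7 mice, by a biological coefficient of variation of 37.2%, and, for Il34 and Flt3, by few counts. The count of 141 genes moved to 1403 with DESeq2, 288 with no filter on low counts, 213 with the effective-length offset, 64 and 71 with limma on log2(TPM + 1) and log2(TPM + 0.1), 637 and 1 at adjusted p under 0.1 and 0.01, and 1 to 159 with 1 library left out. On log2(TPM + 0.1) the median log2 fold change of all genes was -0.13, against -0.014. The calls higher and lower in old mice also changed in balance, from 100 and 41 by edgeR to 748 and 655 with DESeq2. They were 32 and 32 on log2(TPM + 1), 34 and 37 on log2(TPM + 0.1), and 43 and 42 without 4posI. The count of members called, 0 by edgeR, was 2 with DESeq2, and 0 to 1 with 1 library left out; in the other alternatives it was 0. Csf1 stayed negative in all 19, from -1.70 to -0.84 with 1 library left out, and was called with DESeq2 (-1.11) and without 4posI; per microglial marker, a setting added after the values were seen, it was -0.84. Flt3 was called with DESeq2 (2.37) and ran from 0.85 to 3.07 with 1 library left out. With 1 library left out Csf1r ran from -0.80 to -0.38 and Il34 from -2.15 to -0.33, and neither was called in any alternative; Csf1r was -0.23 per microglial marker, and Il34 -0.20 on log2(TPM + 1). Csf2rb turned to -0.05 on either TPM scale (-0.048 and -0.051) and ran from -0.31 to 0.35, Csf2rb2 from -0.25 to 0.57, both negative only without 3posI among these. Cbl turned to -0.022 and -0.024 on the TPM scales and Sdc1 to -0.66 without 3posI, within -0.66 to 3.34 with 1 library left out; the causes were not tested. On log2(TPM + 1) and log2(TPM + 0.1), Sdc1 was 0.78 and 1.06, Pdgfrb -0.46 and -1.16, and Sos1 0.39 and 0.60. The Csf2rb2 share differed by 0.871 to 3.38 percentage points and the Csf1 to Csf1r ratio by -0.94 to -0.33 with 1 library left out. No paired analysis was possible because the labels give the mice of the ages no shared numbers.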
